A study of Mus musculus with 5 samples.

Results

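Matricellular proteins are secreted proteins of the extracellular matrix that act on cells and on matrix assembly more than as structural fibres, and the 10 genes described here encode periostin (Postn), tenascin C (Tnc), SPARC (Sparc), SPARC-like 1 or hevin (Sparcl1), thrombospondins (Thbs1 and Thbs2), the CCN proteins Ccn1 and Ccn2, fibronectin (Fn1) and osteopontin (Spp1). They were chosen by name, and all 10 were found among the 23857 genes listed for 5 RNA-seq libraries of mouse oviduct cells. Each library came from 1 young adult female mouse. The cells were YFP-positive stromal cells, sorted by FACS from the fallopian tube (oviduct). Control mice 2 and 3 carried Pdgfra-Cre and the Rosa26-YFP reporter R26Y, a genotype that the labels also call wild-type, and conditional knockout (cKO) mice 1, 2 and 3 carried Pdgfra-Cre, Esr1(fl/fl) and R26Y. Cre from the Pdgfra promoter acts in mesenchymal cells, where it deletes floxed sequence of Esr1, which encodes estrogen receptor alpha, and switches on YFP, so all 5 mice shared the driver and the reporter. The comparison asks what differs in these cells when Esr1 is targeted.

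Matricellular proteins bind collagens, growth factors and cell-surface receptors such as integrins and syndecans. Many are low in resting tissue and induced during repair, remodelling or mechanical load, often through TGF-beta or the YAP and TAZ coactivators. In fibroblasts, periostin and tenascin C are deposited together with fibronectin and type I collagen, and periostin promotes collagen crosslinking by lysyl oxidase. The stroma of the female reproductive tract is remodelled over the hormonal cycle, and its cells carry estrogen and progesterone receptors.

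The labels and the sorted fraction were checked before the results. Esr1 itself was at 83.3 and 77.6 TPM (transcripts per 1000000) in control mice 2 and 3 and at 28.9, 85.0 and 170 TPM in cKO mice 1, 2 and 3, so its level lay below both controls only in the library labelled cKO mouse 1 and goes against the label in the others. Values per gene do not show whether the floxed part was missing from the transcripts, and all directions below are those of the libraries labelled cKO. Stromal markers were abundant in every library, with Dcn (decorin) at 6764 to 10110.4 TPM and Pdgfra at 165 to 298 TPM. Their sum over 8 genes was 18098 and 14993 TPM for control mice 2 and 3 and 13243, 10406 and 11479 TPM for cKO mice 1, 2 and 3, less than the epithelial sum in cKO mice 2 and 3. Other cell types were present in every library, and no marker of the lists used here was at 0 in any of them. Summed over 10 epithelial markers their level came to 3028 and 3328 TPM in control mice 2 and 3 and 2156, 12058 and 13148 TPM in cKO mice 1, 2 and 3, mostly from the oviduct glycoprotein gene Ovgp1, which exceeded Dcn in cKO mice 2 and 3 at 10655 and 11258 TPM. Summed over 9 macrophage markers it was 2551 and 3198 TPM in the controls and 1944, 1274 and 871 TPM in cKO mice 1, 2 and 3. TPM keeps no read totals, so the depth behind each value is unknown. The number of genes at 1 TPM or more ranged from 15841 to 19432 per library.

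The stretches before the annotated starts of Postn, Tnc and Ccn1 are shown because Postn and Tnc made up the pair with the largest difference among the ratios compared below and Ccn1 is the CCN gene for which a promoter was at hand. They are the 250 bases upstream of each start, 5′ to 3′ on the gene's strand, from RefSeq on GRCm38.p6 (mm10), and capitals mark matches to the motifs searched. Promoters of 6 of the 10 members were found, in 9 windows of 300 bases. The window at the upstream start of Tnc held no match to any motif searched and is not printed.
Postn, upstream start, chr3:54359017-54359266, plus strand: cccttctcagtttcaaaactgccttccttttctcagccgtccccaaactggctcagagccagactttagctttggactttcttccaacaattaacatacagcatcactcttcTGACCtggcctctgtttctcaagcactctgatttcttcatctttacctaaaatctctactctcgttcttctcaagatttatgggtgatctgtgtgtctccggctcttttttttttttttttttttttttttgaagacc
Postn, downstream start, chr3:54360857-54361106, plus strand: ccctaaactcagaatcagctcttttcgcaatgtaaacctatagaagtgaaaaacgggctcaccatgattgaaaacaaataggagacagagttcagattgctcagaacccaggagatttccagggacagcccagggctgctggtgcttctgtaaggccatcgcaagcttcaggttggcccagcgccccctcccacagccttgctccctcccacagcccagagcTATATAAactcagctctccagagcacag
Tnc, downstream start, chr4:64046937-64047186, minus strand: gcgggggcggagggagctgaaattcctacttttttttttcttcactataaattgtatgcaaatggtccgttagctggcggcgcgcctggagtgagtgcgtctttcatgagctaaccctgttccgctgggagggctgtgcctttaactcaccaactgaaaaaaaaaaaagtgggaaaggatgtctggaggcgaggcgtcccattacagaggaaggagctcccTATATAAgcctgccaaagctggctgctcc
Ccn1, chr3:145649986-145650235, minus strand: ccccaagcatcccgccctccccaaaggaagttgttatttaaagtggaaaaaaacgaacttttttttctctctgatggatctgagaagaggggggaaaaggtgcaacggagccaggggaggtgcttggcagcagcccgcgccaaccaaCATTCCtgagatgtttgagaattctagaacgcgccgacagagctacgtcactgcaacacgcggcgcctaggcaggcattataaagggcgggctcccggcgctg
The search covered both strands. The estrogen response element was searched as the arm GGTCA followed by any 3 bases and the reverse complement of that arm, and its single arm, which the full element contains, was also searched alone. Sites of AP-1 were searched by the letters TGANTCA. Sites of TEAD, the DNA-binding partner of YAP, were searched by GGAATG. The TATA box was searched by TATATAA. No member window held the full estrogen response element, which 0.0701% of 32817 promoter windows held. Those windows exclude repeats of the same position and a chromosome left out of the search, and the shares below are over them. The single arm, in 40.5% of all windows, occurred in the upstream window of Postn and in that of Sparc. The TEAD letters, in 14.7% of all windows, occurred in Ccn1. The TATA letters, in 3.25% of all windows, were added to the search after the sequences were seen and occurred at the downstream starts of Postn and Tnc, 28 and 29 bases upstream. The AP-1 letters, in 7.81% of all windows, were in none of the 9. These are matches of letters and show no binding.

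Across the 10 genes, 8 had a lower mean in the libraries labelled cKO and 2, Tnc and Ccn2, a higher mean. All 10 passed the filter on low values. None of the 10 passed an adjusted p of 0.05 in limma over 19292 genes, where 0.0259% of genes did (0.0156% lower and 0.0104% higher). At an unadjusted p under 0.05, 6 members were lower and 2 higher, against 9.87% and 3.7% of all genes. In 6 members every cKO library lay below both controls, against 21.9% of all genes tested, and in 2 every cKO library lay above both, against 11.9%. The median log2 fold change was -0.51 for the members and -0.02 for all genes tested. The split of all genes at an unadjusted p under 0.05 depended on scaling: it was 713 higher and 1904 lower as deposited, 1139 and 1386 after quantile normalization, and 1290 and 1726 with median-of-ratios scaling. All 10 members had the same sign under each of these scalings. The counts also rested on single libraries. Without cKO mouse 2 they were 2 lower and 2 higher, against 2080 lower and 343 higher among all genes. With 1 control left out, that group is a single library, so only fold changes are compared. Without control mouse 2 those of Postn, Tnc, Sparc, Sparcl1, Ccn1, Ccn2 and Fn1 became smaller in size. Those of Thbs1, Thbs2 and Spp1 became larger.

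**Figure D1:**
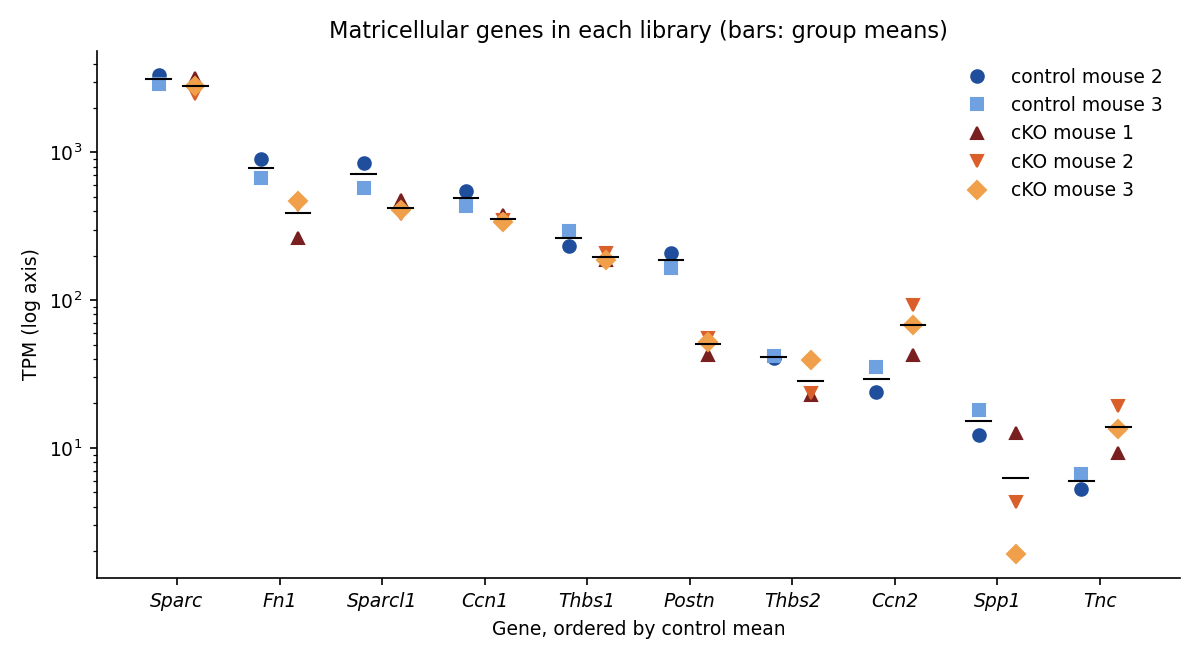
TPM of the 10 genes on a log axis, ordered by the control mean, with 1 point per library and a bar at each group mean. Every cKO point of Postn, Fn1, Sparcl1, Ccn1, Thbs1 and Thbs2 lies below both control points, and every cKO point of Ccn2 and Tnc lies above them.

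In the controls the levels, which TPM scales by transcript length, ran from Sparc at a mean of 3124 TPM through Fn1 (786), Sparcl1 (716), Ccn1 (489), Thbs1 (263), Postn (186), Thbs2 (41.2), Ccn2 (29.4) and Spp1 (15.2) to Tnc at 5.99 TPM. Between neighbours in that order the ranges of the 2 libraries overlapped for Fn1 and Sparcl1. In the cKO libraries the order was Sparc, Sparcl1, Fn1, Ccn1, Thbs1, Ccn2, Postn, Thbs2, Tnc and Spp1. There the ranges overlapped between Sparcl1 and Fn1, Fn1 and Ccn1, Ccn2 and Postn, and Tnc and Spp1. Summed over the 10 genes, their level came to 6179 and 5133 TPM in control mice 2 and 3 and 4608, 4067 and 4392 TPM in cKO mice 1, 2 and 3. Sparc made up 54.4% and 56.2% of that sum in the controls and 68.9%, 61.2% and 64.2% in the cKO libraries.

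Periostin differed most relative to its spread. Postn was at 208 and 164 TPM in control mice 2 and 3 and at 42.6, 55.6 and 52.2 TPM in cKO mice 1, 2 and 3. The groups did not overlap: the highest cKO value was far below the lower control, and within each group the highest value was about 1.3 times the lowest (1.27 in controls, 1.31 in cKO). Postn averaged 186 ± 31.2 TPM (SD, n = 2) across the control mice; the cKO mice averaged 50.1 ± 6.74 TPM (SD, n = 3), a level of 26.9% of the control mean. On the log2 scale the fold change was -1.87 (standard error 0.19), with a 95% interval of -2.33 to -1.41. Its unadjusted p was 2.95e-05 and its adjusted p 0.0666 in limma, which missed the threshold. In the rank of all listed genes Postn stood at places 533 and 636 in the controls and at places 3087, 2787 and 3046 in cKO mice 1, 2 and 3. Without cKO mouse 1 the adjusted p in limma was 0.0132, at a log2 fold change of -1.76, in a fit that called 1022 genes higher and 502 lower. Without cKO mouse 2 the adjusted p in limma was 0.187, at -1.95. The log2 fold change was -1.70 without control mouse 2. The gene (ENSMUSG00000027750) lies at chr3:54359267-54391041 on GRCm38.

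Tenascin C, a large hexameric glycoprotein that modulates adhesion to fibronectin, lay on the opposite side of the controls at a much lower level. Tnc was at 5.29 and 6.68 TPM in control mice 2 and 3 and at 9.18, 19.1 and 13.4 TPM in cKO mice 1, 2 and 3. All 3 cKO libraries were above both controls, with mouse 1 nearest to them. The log2 fold change was 1.05 (standard error 0.31, 95% interval 0.30 to 1.79, limma adjusted p 0.261). Without cKO mouse 1 it was 1.29, with an adjusted p of 0.0346 in limma, in a fit that called 1022 genes higher and 502 lower. It was 0.80 without cKO mouse 2 (limma adjusted p 0.346) and 0.90 without control mouse 2. Within a library, Postn exceeded Tnc 39.4-fold and 24.5-fold in the controls and 4.64-fold, 2.91-fold and 3.89-fold in cKO mice 1, 2 and 3, a mean difference in log2 ratio of -2.92 (ratios were tested on log2(TPM + 1)). The exact two-sided permutation p was 0.1, the smallest that 10 assignments of 5 libraries can give, and 0.25 after adjustment over the 5 ratios tested. Tnc (ENSMUSG00000028364) lies at chr4:63959785-64047015.

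Fibronectin, which cells assemble into fibrils through integrins and on which other matrix proteins are laid down, lay below both controls in all 3 cKO libraries. Fn1 was at 898 and 675 TPM in control mice 2 and 3 and at 262, 440 and 467 TPM in cKO mice 1, 2 and 3. Mouse 1 was the lowest, and none of the cKO values reached a control. The mean was 49.5% of the control mean, with a log2 fold change of -1.04 (standard error 0.30, 95% interval -1.75 to -0.34, limma adjusted p 0.239). Without cKO mouse 1 the log2 fold change was -0.78. Fn1 (ENSMUSG00000026193) lies at chr1:71585473-71653280.

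SPARC binds collagen and acts in its processing, and hevin is its close relative with a longer acidic region. Sparc was at 3361 and 2887 TPM in control mice 2 and 3 and at 3175, 2489 and 2821 TPM in cKO mice 1, 2 and 3, places 17 to 26 among all listed genes. The groups overlapped, and the log2 fold change was -0.15 (standard error 0.26, 95% interval -0.77 to 0.48, limma adjusted p 0.803). With 1 library left out it ran from -0.26 without control mouse 3 to -0.04 without control mouse 2. Sparcl1 was at 852 and 579 TPM in the control libraries, and at 477, 382 and 405 TPM in cKO mice 1, 2 and 3. The groups did not overlap, but the gap between the control libraries exceeded that from control mouse 3 to cKO mouse 1. The log2 fold change was -0.74 (standard error 0.23, 95% interval -1.29 to -0.20, limma adjusted p 0.273), and it was -0.46 without control mouse 2. The ratio of Sparc to Sparcl1 was 3.94 and 4.99 in the controls and 6.66, 6.52 and 6.97 in cKO mice 1, 2 and 3, above both controls in all 3 (difference in log2 ratio 0.60, exact permutation p 0.1, adjusted 0.25). Sparc lies at chr11:55394159-55420080 and Sparcl1 at chr5:104079108-104114088.

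The thrombospondins are large multimeric glycoproteins that inhibit angiogenesis through CD36 and CD47, and thrombospondin 1 also activates latent TGF-beta. Thbs1 was at 232 and 295 TPM in control mice 2 and 3 and at 188, 210 and 186 TPM in cKO mice 1, 2 and 3. The cKO values lay close together just below the controls, and the log2 fold change was -0.42 (standard error 0.18, 95% interval -0.85 to -0.0014, limma adjusted p 0.368). It was -0.25 without control mouse 3. Thbs2 was at 40.6 and 41.8 TPM in the control libraries, and at 22.7, 23.5 and 39.1 TPM in cKO mice 1, 2 and 3. Mice 1 and 2 were well below the controls and mouse 3 was close to them. The log2 fold change was -0.56 (standard error 0.26, 95% interval -1.18 to 0.05, limma adjusted p 0.394). The ratio of Thbs1 to Thbs2 overlapped between the groups, from 5.71 to 7.05 in controls and from 4.76 to 8.93 in cKO libraries (difference in log2 ratio 0.14, exact permutation p 0.7, adjusted 0.7). Thbs1 lies at chr2:118111876-118127133 and Thbs2 at chr17:14665500-14694262.

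**Figure D2:**
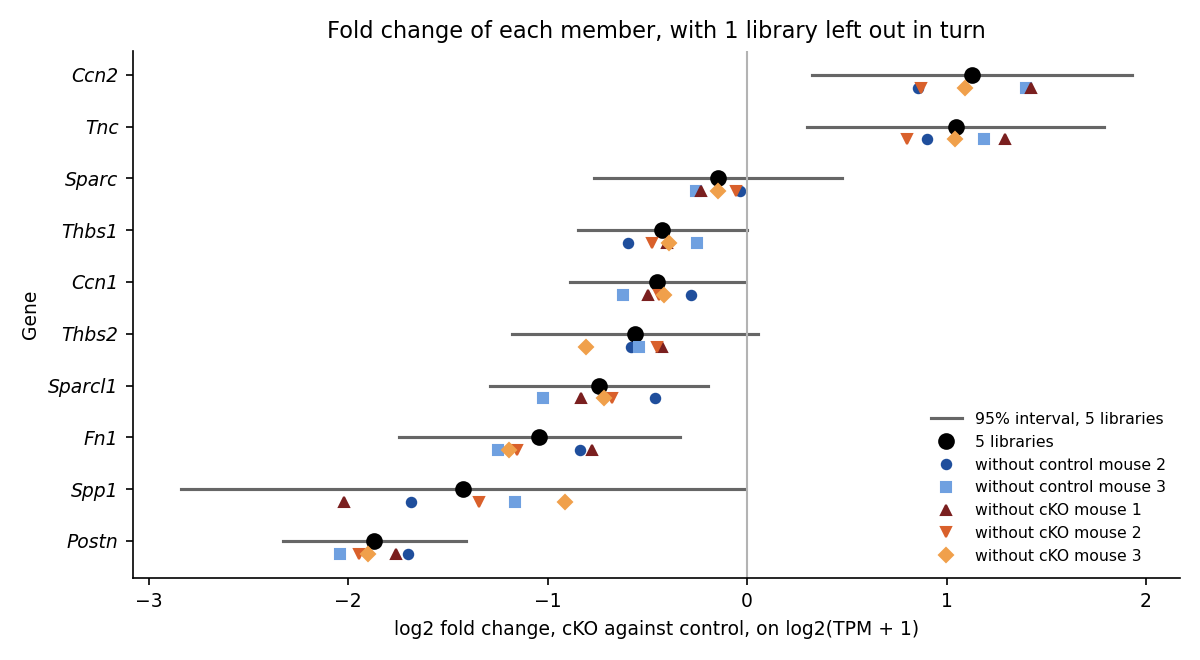
Log2 fold change of each gene on log2(TPM + 1), cKO against control, with its 95% interval from all 5 libraries (black point, grey line) and the value with each library left out (coloured points). Each of the 10 genes keeps its sign in all 5 reduced fits, which is fixed in advance for genes whose groups do not overlap. Spp1 moves the most, from -2.02 without cKO mouse 1 to -0.91 without cKO mouse 3.

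The CCN genes encode cysteine-rich proteins that bind integrins and are textbook targets of YAP and TAZ, and here they lay on opposite sides of the controls. Ccn1 was at 547 and 431 TPM in control mice 2 and 3 and at 378, 351 and 338 TPM in cKO mice 1, 2 and 3. The 3 cKO values lay within 1.12 times of each other, below both controls, and the log2 fold change was -0.45 (standard error 0.19, 95% interval -0.89 to -0.01, limma adjusted p 0.360). It was -0.28 without control mouse 2. Ccn2, also known as connective tissue growth factor, was at 23.7 and 35.1 TPM in the control libraries, and at 42.5, 92.4 and 67.6 TPM in cKO mice 1, 2 and 3. It lay above both controls in all 3, least in mouse 1, with a log2 fold change of 1.13 (standard error 0.34, 95% interval 0.33 to 1.93, limma adjusted p 0.261). Without cKO mouse 1 it was 1.42, with an adjusted p of 0.0283 in limma, in a fit that called 1022 genes higher and 502 lower. It was 0.87 without cKO mouse 2 (limma adjusted p 0.349) and 0.86 without control mouse 2. Within a library Ccn1 exceeded Ccn2 23.0-fold and 12.3-fold in the controls and 8.89-fold, 3.80-fold and 5.0-fold in cKO mice 1, 2 and 3. The groups did not overlap (difference in log2 ratio -1.58, exact permutation p 0.2, adjusted 0.25). Ccn1 lies at chr3:145646971-145649985 and Ccn2 at chr10:24595442-24598683.

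Tnc and Ccn2 had the same order of libraries, with cKO mouse 2 highest, then mice 3 and 1, then control mouse 3 and control mouse 2. The summed epithelial markers were higher in cKO mice 2 and 3 and lower in cKO mouse 1 than in the controls, while Tnc and Ccn2 were above the controls in cKO mouse 1 too. Their part in these results was not tested.

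Osteopontin, a phosphoprotein that binds integrins and CD44 and is made by macrophages and epithelia as well as by matrix-forming cells, was the most variable member. Spp1 was at 12.3 and 18.1 TPM in control mice 2 and 3 and at 12.5, 4.30 and 1.91 TPM in cKO mice 1, 2 and 3. The library of cKO mouse 1 lay between the controls, so the groups overlapped, and the highest cKO value was 6.55 times the lowest. The log2 fold change was -1.42 (standard error 0.60, 95% interval -2.84 to -0.0089, limma adjusted p 0.367). Without cKO mouse 1 it was -2.02 (limma adjusted p 0.0310), in a fit that called 1022 genes higher and 502 lower. It was -0.91 without cKO mouse 3 (limma adjusted p 0.602). Macrophage markers had the same order among the cKO libraries, with mouse 1 highest and mouse 3 lowest. All 9 lay below both controls in each of the 3, against 21.9% of all genes tested. For example Lyz2 was at 1546 and 2125 TPM in the control libraries, and at 1163, 738 and 552 TPM in cKO mice 1, 2 and 3. Its log2 fold change was -1.22, against a median of -1.01 for the macrophage list. The part of macrophages in the Spp1 values was not tested. In bulk libraries such as these, fewer cells of a type and less RNA per cell cannot be told apart. Spp1 lies at chr5:104435111-104441053.

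**Figure D3:**
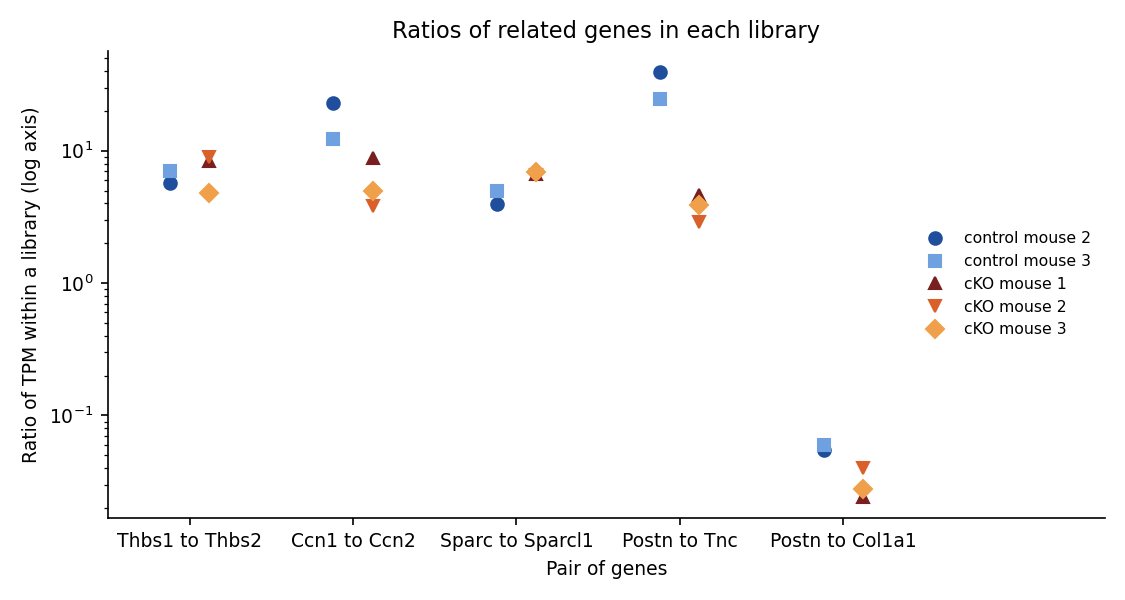
Ratio of TPM within each library for 5 pairs of genes, on a log axis, 1 point per library. The groups separate for each pair other than Thbs1 to Thbs2, with the widest gap for Postn to Tnc, from 24.5 to 39.4 in controls and from 2.91 to 4.64 in cKO libraries.

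The genes whose profile over the 5 libraries was most like that of Postn were found by distance between log2(TPM + 1) values centred on each gene's mean, among 9972 genes with a mean of at least 10 TPM. They were Il4ra, the alpha chain of the interleukin-4 receptor (distance 0.21), Cyp7b1, an oxysterol hydroxylase (0.43), Col5a3, a chain of type V collagen (0.45), Nova1, an RNA-binding splicing regulator (0.45), and Atp8b1, a phospholipid flippase (0.47). Il4ra was at 139 and 107 TPM in control mice 2 and 3 and at 23.3, 33.2 and 31.3 TPM in cKO mice 1, 2 and 3 (log2 fold change -2.04, standard error 0.22, limma adjusted p 0.0666). For the other 4 genes the log2 fold change ran from -2.11 in Col5a3 to -1.65 in Atp8b1. With 5 libraries in 2 groups, likeness of this kind mostly reflects the group difference.

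The next genes in that order were Msln, which encodes mesothelin of the serosal lining, at place 6 (distance 0.48), and the collagen-binding proteoglycan gene Lum, at place 7 (0.51), both named after their values were seen. Msln was at 123 and 99.6 TPM in control mice 2 and 3 and at 30.4, 45.2 and 44.4 TPM in cKO mice 1, 2 and 3. The other 4 mesothelial markers, Upk3b, Upk1b, Lrrn4 and Bnc1, also lay below both controls in every cKO library, as did 21.9% of all genes tested. Summed over the 5 markers their level came to 530 and 420 TPM in the controls and 161, 238 and 256 TPM in cKO mice 1, 2 and 3, with cKO mouse 1 lowest as for Postn. Those 4 stood further from Postn than Msln did, at places 75 (Upk3b), 63 (Upk1b), 24 (Lrrn4) and 92 (Bnc1). The TPM ratio of Postn to Msln was 1.69 and 1.65 in the controls and 1.40, 1.23 and 1.18 in cKO mice 1, 2 and 3. The ratio to Upk3b was 0.93 and 0.92 in the controls and 0.53, 0.49 and 0.44 in cKO mice 1, 2 and 3. Ratios to Upk1b, Lrrn4 and Bnc1 were also lower in every cKO library than in both controls. The part of mesothelial cells in the Postn values was not tested.

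**Figure D4:**
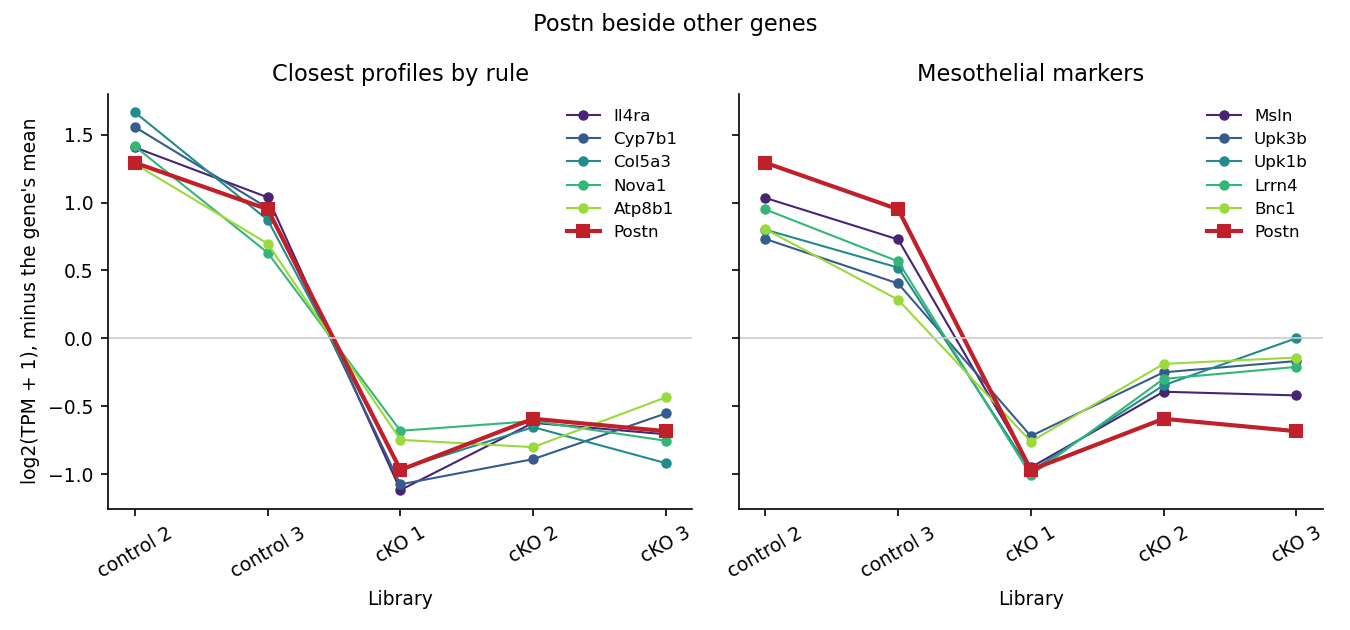
Log2(TPM + 1) minus the gene's mean over the 5 libraries for Postn (red squares) beside its 5 closest genes by rule (left) and beside 5 mesothelial markers (right). The Postn line is above 0 in both controls and below 0 in the 3 cKO libraries. Msln is the closest of the 5 markers to Postn. The TPM ratio of Postn to Msln is 1.40, 1.23 and 1.18 in the cKO libraries against 1.69 and 1.65 in the controls.

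Type I collagen is a direct partner of periostin, fibronectin and SPARC. Among 16 collagen and crosslinking genes 15 had a lower mean in the cKO libraries. At an unadjusted p under 0.05, 9 were lower and 1 higher, against 9.87% and 3.7% of all genes, and 0 passed the adjusted threshold in limma. Their median log2 fold change was -0.73, against -0.02 over all genes tested, and without control mouse 2 it was -0.41. The exception was Col12a1, a fibril-associated collagen, at 17.6 and 22.0 TPM in control mice 2 and 3 and at 43.6, 43.0 and 38.5 TPM in cKO mice 1, 2 and 3 (fold change 1.05 on the log2 scale, limma adjusted p 0.130). Col6a3, Plod2, a lysyl hydroxylase, and Loxl1, a lysyl oxidase, had log2 fold changes of -1.84, -1.46 and -0.74 (limma adjusted p 0.187, 0.214 and 0.215). The Col6a3 controls stood 2.70-fold apart, at 674 and 250 TPM. The TPM ratio of Postn to Col1a1 was 0.0547 and 0.0602 in the controls and 0.0244, 0.0401 and 0.0277 in cKO mice 1, 2 and 3, below both controls in all 3 (difference in log2 ratio -0.91, exact permutation p 0.2, adjusted 0.25).

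Of 23 other matricellular and related genes, 21 were tested and Ibsp and Mepe, both of bone matrix, did not pass the filter. At an unadjusted p under 0.05, 4 were lower and 4 higher, against 9.87% and 3.7% of all genes. None passed the adjusted threshold in limma, and the median log2 fold change was -0.28. That median was -0.02 after quantile normalization, -0.04 among genes averaging 5 TPM or more, -0.17 without control mouse 2 or cKO mouse 3, and -0.43 without control mouse 3. Thbs4, a thrombospondin of tendon and muscle matrix, was at 8.80 and 15.9 TPM in control mice 2 and 3 and at 35.3, 78.4 and 61.5 TPM in cKO mice 1, 2 and 3 (log2 fold change 2.13, standard error 0.38, limma adjusted p 0.133). It thus lay on the other side of the controls from Thbs1 and Thbs2. Smoc2, a SPARC-related calcium-binding protein, was at 44.4 and 42.4 TPM in the control libraries, and at 102, 101 and 143 TPM in cKO mice 1, 2 and 3 (log2 fold change 1.37, standard error 0.20, limma adjusted p 0.117). Tgfbi, which shares the fasciclin domains of periostin, was at 371 and 575 TPM in the control libraries. In cKO mice 1, 2 and 3 it was at 1080, 719 and 909 TPM, opposite to Postn (log2 fold change 0.95, standard error 0.27, limma adjusted p 0.245). Spon2 (spondin 2) was at 177 and 141 TPM in the control libraries, and at 84.9, 44.6 and 28.7 TPM in cKO mice 1, 2 and 3 (fold change -1.70 on the log2 scale, limma adjusted p 0.199).

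Of 18 receptors of these proteins, 3 were lower and 0 higher at an unadjusted p under 0.05, against 9.87% and 3.7% of all genes. The adjusted threshold in limma was passed by 0, and the median log2 fold change was -0.24 (-0.07 without cKO mouse 3 and -0.14 with library weights). The 4 with the smallest p were Itga4, Itgb6 and Itga5, integrin chains, and Sdc4, a heparan sulfate syndecan, with log2 fold changes of -0.86, -0.83, -0.61 and -0.38 (limma adjusted p 0.327 to 0.369). Itga4, a receptor chain also carried by leukocytes, was at 18.7 and 18.1 TPM in control mice 2 and 3 and at 13.7, 10.4 and 6.22 TPM in cKO mice 1, 2 and 3.

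Among 22 genes of TGF-beta and of YAP and TAZ signalling, 5 were lower and 0 higher at an unadjusted p under 0.05. Of all genes, 9.87% were lower and 3.7% higher. In this list 0 passed the adjusted threshold in limma, and the median log2 fold change was -0.03. Its sign depended on the processing, from -0.14 after quantile normalization to 0.04 with library weights. Tgfbr2, the type II TGF-beta receptor, was at 393 and 231 TPM in control mice 2 and 3 and at 142, 152 and 142 TPM in cKO mice 1, 2 and 3 (log2 fold change -1.05, standard error 0.24, limma adjusted p 0.193). Tgfb2 and Ankrd1, a YAP target, had log2 fold changes of -0.74 and -0.86 (limma adjusted p 0.342 and 0.312). Ankrd1 thus lay on the side of Ccn1 and opposite to Ccn2, at 1.90 TPM or less in every library.

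Ccn1 and Thbs1 are also induced within minutes by serum or tissue dissociation. Immediate early and dissociation genes are therefore given beside them, the latter including the heat shock genes Hspa1a and Hspa1b. Of 14 such genes, 13 had a lower mean in the cKO libraries. At an unadjusted p under 0.05, 1 (Atf3) was lower, against 9.87% of all genes, and 0 passed the adjusted threshold in limma. The median log2 fold change was -0.56 (-0.29 without cKO mouse 3, -0.36 without control mouse 3 and -0.93 without cKO mouse 1). Their sum came to 13240 and 14751 TPM in control mice 2 and 3 and 13839, 8703 and 7038 TPM in cKO mice 1, 2 and 3. Hspa1b gave 3616 and 3371 TPM of that sum in the controls and 3642, 1948 and 1771 TPM in cKO mice 1, 2 and 3. Ccn1 was below both controls in cKO mouse 1 as well, where that sum lay between the controls. The genes with the smallest p were Atf3, Fosb, Hspa1a and Nr4a1, with log2 fold changes of -0.83, -0.78, -0.70 and -0.83 (limma adjusted p 0.321 to 0.396). The part of dissociation in the Ccn1 and Thbs1 values was not tested.

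Markers of cell types gave the following counts at an unadjusted p under 0.05, with 0 past the adjusted threshold in limma. Over all genes tested, 9.87% were lower and 3.7% higher at that unadjusted p. Of 8 stromal markers 2 were lower and 0 higher, of 9 smooth muscle and pericyte markers 2 were lower and 0 higher, and of 8 endothelial markers 0 were either. All 5 mesothelial and 8 of 9 macrophage markers were lower, and the macrophage median of -1.01 was -0.65 without cKO mouse 3. Of 10 epithelial markers 0 were lower or higher, and in cKO mouse 1 alone 6 of them lay below both controls while in mice 2 and 3 9 lay above both. The epithelial median of 0.52 was 0.89 without cKO mouse 1, 0.31 without cKO mouse 2 and 0.29 without cKO mouse 3.

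**Figure D5:**
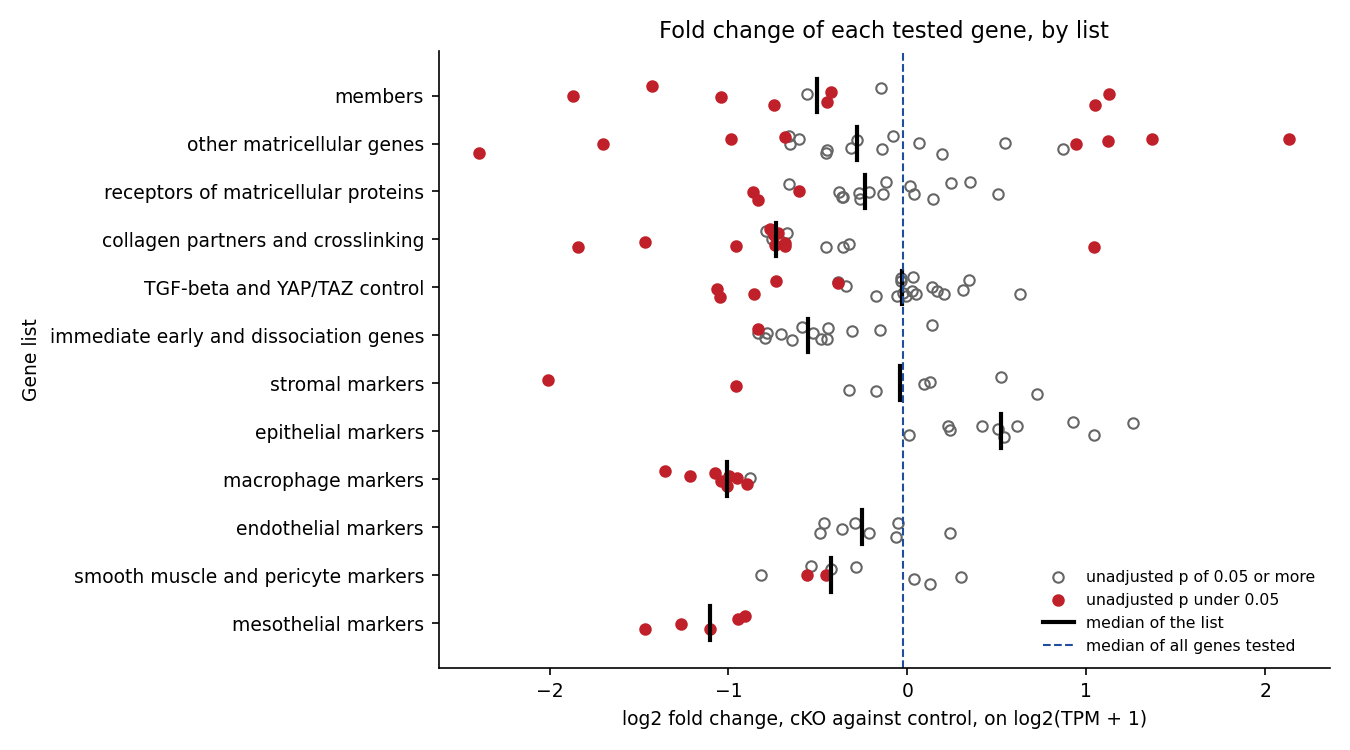
Log2 fold change on log2(TPM + 1), cKO against control, of each tested gene in the 10 members (top row) and 11 other lists, with the median of each list (black bar) and of all genes tested (dashed line). Members and other matricellular genes spread to both sides, while all 5 mesothelial and all 9 macrophage markers lie below 0 (medians -1.10 and -1.01) and the epithelial median is 0.52.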

How the data were processed

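Bulk RNA-seq was analysed from 2 control and 3 Esr1 conditional knockout libraries, grouped and numbered by mouse from the labels. Per the labels' protocols, RNA was extracted from sorted cells and libraries were made with a low-input SMARTer mRNA kit. The authors deposited TPM per gene, summing to 1000000 in each library; STAR appears in the table's name and mm10 in the submitters' processing notes. The aligner version, counter and annotation are not given in the sources used here.

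Values were converted to log2(TPM + 1) and genes with at least 1 TPM in at least 2 libraries entered a linear model in limma 3.58.1 under R 4.3.3 (lmFit, eBayes with trend, two-sided, Benjamini-Hochberg over 19292 genes, threshold 0.05). Fold changes on this scale understate those of low genes. TPM is a share, so Rpph1, at 13.1% to 22.3% of a library, lowers all others. Ratios were compared by exact permutation over 10 assignments. Python 3.11.15 was used for these. The fit was tested on simulated data with the same noise for every gene and changes larger than any member's, so changes of their size were not covered. Coordinates and promoters are from RefSeq on GRCm38.p6, which matched all 10 symbols.

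Members, lists and alternatives were chosen with earlier results of these data known. The named genes are the members, Esr1, Pdgfra, from each of 5 pathway lists those past the threshold or else the 4 with the smallest p, and the 5 closest to Postn. Genes named outside this rule include Dcn, Ovgp1, Lyz2, Lum, Col1a1, Hspa1b and the mesothelial markers. A gene that this rule names is not reported here. Alternatives covered pseudocount, filters, scaling, variance model, library weights, a replicate block and leaving out each library.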

Additional observations from a re-analysis of the deposited data

How the results depend on the processing

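The numbers of all genes past an adjusted p of 0.05 in limma, 2 higher and 3 lower, were 0 and 0 with a pseudocount of 0.1 (715 and 1518 at an unadjusted p under 0.05) and also when only genes averaging 5 TPM or more were kept (643 and 746). Without a filter 1 gene was higher, and 0 were with median-of-ratios scaling (1290 unadjusted), quantile normalization (1139) and eBayes without trend (555), and the lower genes numbered 5 without Rpph1 and Rn45s. Library weights gave 260 and 396. Leaving out 1 cKO library at a time gave 0 to 1022 higher and 0 to 502 lower, the highest without cKO mouse 1. With 1 control left, the fit assumes that it varies like the other group, so those counts are left out.

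Of the members, 0 passed in the reported fit. Postn (log2 fold change -1.87) passed with quantile normalization (-1.99), without Rpph1 and Rn45s (-1.93) and with library weights (-1.78), so 1 member was called lower in each, and library weights also called 2 higher, Tnc and Ccn2. Without 1 cKO library, 0 to 2 were called higher and 0 to 2 lower. With any 1 library left out, the log2 fold change of Postn ranged from -2.04 to -1.70. Its adjusted p in limma ran from 0.0037 to 0.187 over the alternatives that kept both controls. At an unadjusted p under 0.05 the members numbered 3 lower with median-of-ratios scaling and with eBayes without trend. They numbered 2 to 6 lower and 2 higher without 1 cKO library. No member reversed its sign in any of the 14 alternatives. Where the groups did not overlap, leaving out 1 library cannot reverse it, and the filters and the variance model leave a fold change as it was. The log2 ratio of Thbs1 to Thbs2 did, at -0.013 without control mouse 2 and -0.026 without cKO mouse 2, and ranged up to 0.42 without cKO mouse 3. The cause was not tested.

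The mouse number as a replicate block gave 1165 higher and 693 lower genes, 2 members higher and 4 lower (Postn at -1.76, Sparcl1, Fn1 and Spp1). Mouse 1 has no partner there, so its fold changes equal those without cKO mouse 1. Deviations of same-numbered mice from their group means correlated at -0.06 and -0.07 across genes. With 2 controls the deviations of 1 mirror those of the other, so these values cannot show whether same-numbered mice shared more than a number.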
